A study of Mus musculus with 12 samples.

Results

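The genes described here are the members of 8 families of developmental transcription factors outside the Hox clusters: the T-box (Tbx), Pax, Msx, Dlx, LIM-homeodomain (Lhx), sine oculis-related (Six2 to Six6), Alx and Emx families. They were taken by symbol from the probe annotation, where a family name is followed only by a number, and where a gene had several probe sets, that of the highest mean value on the 12 arrays was read. This gave 46 of the 18193 genes measured: 12 Tbx, 8 Pax, 8 Lhx, 6 Dlx, 5 sine oculis-related, 3 Msx, 2 Alx and 2 Emx genes.

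These proteins bind DNA through a T-box, a paired domain or a homeodomain, and each is used in the embryo to mark a region or a lineage, such as a limb, a jaw arch, a somite compartment or a part of the brain. Fibroblasts are known to keep part of the positional gene expression of the place they came from when they are cultured. Several of the genes lie in the genome as linked pairs that arose by duplication, and the proteins of a family often share binding sites and can act in place of each other.

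RNA of embryonic fibroblasts (MEFs), cells of connective tissue that were grown from C57BL/6 mouse embryos, was measured on 12 Affymetrix arrays in 6 groups of 2, which the design text calls biological duplicates. WT are wild-type MEFs, KO are Stat5-null MEFs, and S5 are Stat5-null MEFs into which a STAT5A vector was put by retroviral infection. Each was untreated or given growth hormone for 120 minutes, and the hormone groups are called treated below. No label names an empty-vector KO group or a vehicle, or says whether a line is a clone or a pool, and each genotype is its own cells, so that genotype, cell preparation and, for S5, infection cannot be told apart. Nothing says that the 2 arrays of a group came from separate embryos, so p-values measure only the spread between these arrays.

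All values are log2 expression values as deposited. A level below 4 belongs to the low mode of these values, where signal is near background and differences are compressed; 36.1 percent of all genes lay there in all 6 groups. A group mean below 4 was set to 4 before a fold was computed, the fold is then given as "at least", and no fold is given where every group compared lay below 4. Tests are limma's moderated test, two-sided, in a fit of 6 group means, with p-values adjusted over all 18193 genes by the Benjamini-Hochberg method and called at 0.05. Genotype differences are the mean of the untreated and the treated difference, over 4 arrays a genotype.

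The labels held for the deleted genes: the Stat5a and Stat5b probe sets tested had group means between 9.01 and 12.25 in WT and between 1.94 and 2.44 in KO and S5 MEFs, while another Stat5a probe set stood between 9.04 and 9.90 on S5 arrays and between 2.19 and 2.38 on the others. Of 10 fibroblast genes 10 reached 4 on each WT array, 9 on each KO array and 8 or 9 on each S5 array, and Thy1, a fibroblast surface marker, had group means of 4.31 and 2.88 in untreated and treated S5 MEFs against 14.11 to 14.26 elsewhere. Of 14 macrophage and blood genes 12 or 13 reached 4 on WT arrays, 6 or 7 on KO and 3 on S5 arrays. The log2 of their summed level ran from 15.12 to 16.14 in WT, from 9.72 to 10.03 in KO and from 8.46 to 8.74 in S5 MEFs, and Ptprc, Adgre1, Tyrobp and Aif1 lay below 4 in every KO and S5 group. The 3′ control probe set of Gapdh exceeded the 5′ one, on the log2 scale, by 1.52 ± 0.08 (SD, n = 4) on S5, 1.02 ± 0.15 on WT and 1.04 ± 0.08 on KO arrays. For the other control, Actb, the genotypes lay closer, at 3.09 ± 0.05 on S5, 2.88 ± 0.25 on WT and 2.96 ± 0.17 on KO arrays. The part of the differences in fibroblast genes, macrophage and blood genes and Gapdh controls in the genotype results below was not tested. In such bulk RNA, fewer cells of a type and less RNA per cell cannot be told apart.

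Of the 46 genes 23 reached 4 in at least 1 group, and 23 lay below it in all 6 groups. The number that reached 4 was 17 in both WT groups, 15 in both KO groups and 16 in both S5 groups, or 32.6 to 37 percent, against 58.2 to 60.7 percent of all genes. The low genes were Alx4, Dlx1, Dlx4, Dlx6, Emx1, Lhx1, Lhx2, Lhx3, Lhx4, Lhx5, Lhx6, Msx3, Pax4, Pax5, Pax6, Pax7, Pax8, Six2, Six3, Six6, Tbx19, Tbx21 and Tbx22, with values between 1.58 and 3.95. They include Pax6 of the eye and brain, Pax7 of muscle stem cells, Pax5 of B cells and Pax8 of thyroid and kidney. On all 4 arrays of each genotype 10 genes stood at 4 or above: Dlx2, Emx2, Lhx9, Msx2, Pax9, Six4, Six5, Tbx3, Tbx15 and Tbx18. Another 4 did so in WT and KO MEFs and in no S5 array (Lhx8, Pax1, Tbx1 and Tbx5), 2 in WT and S5 MEFs and in no KO array (Msx1 and Tbx4), 3 only on S5 arrays (Dlx3, Dlx5 and Tbx20) and Pax3 on all arrays of KO MEFs and on 1 WT array.

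**Figure D1:**
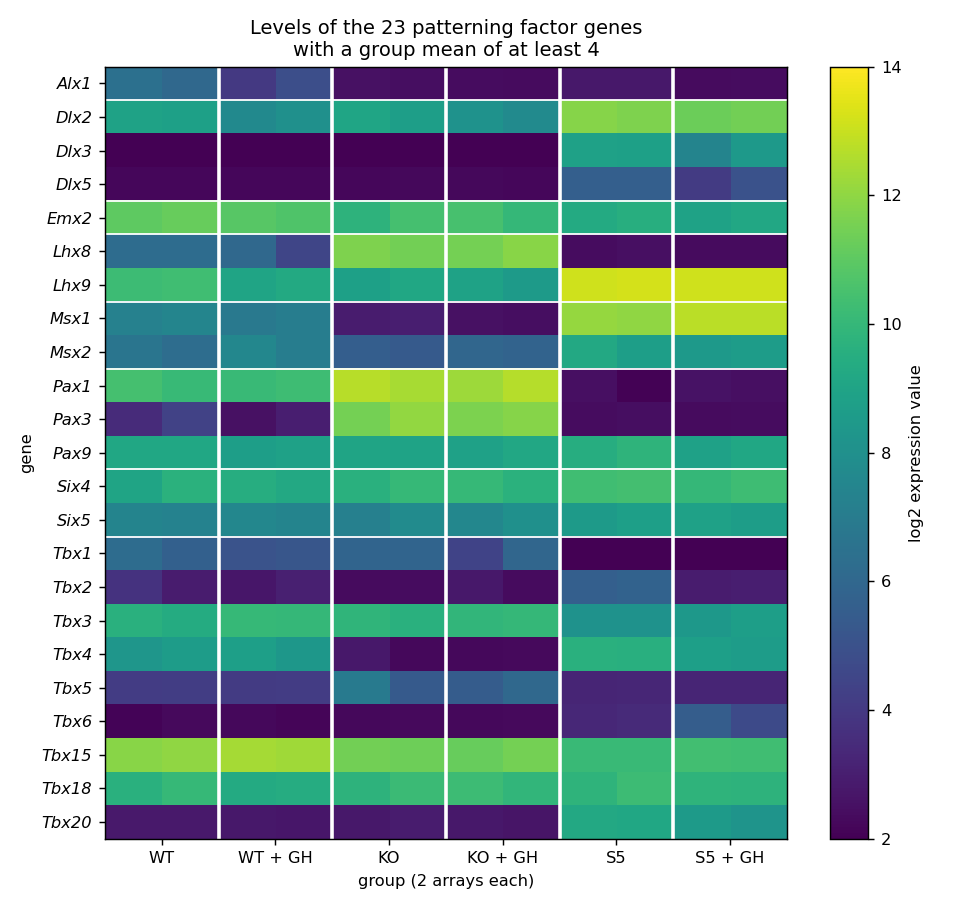
Log2 expression value (colour) of the 23 family members with a group mean of at least 4, by gene (rows, ordered by family) and array (columns, 2 per group; GH, growth hormone). Tbx2 and Tbx6 on S5 arrays and Alx1 on WT arrays differ visibly with and without the hormone, and Lhx8, Msx1, Pax1, Pax3, Tbx4, Dlx3 and Tbx20 change between dark (near 2) and bright (above 8) from genotype to genotype.

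Between KO and WT MEFs 13 of the 46 genes differed, 5 higher and 8 lower in KO, or 28.3 percent, against 38.2 percent of all genes (21.0 percent higher and 17.2 percent lower). Differences that passed and were at least 4-fold after setting low levels to 4 were found for 5 of the 46, or 10.9 percent, against 4.22 percent of all genes. These were Pax3, Lhx8 and Pax1, all higher in KO, and Msx1 and Tbx4, lower in KO. Between S5 and KO MEFs 20 genes differed, 12 higher and 8 lower in S5, or 43.5 percent, against 37.2 percent of all genes (20.3 percent higher, 16.9 percent lower), and 10 did so at least 4-fold, or 21.7 percent against 5.16 percent. Between S5 and WT MEFs 23 differed, 15 higher and 8 lower in S5, or 50 percent, against 44.8 percent (24.7 percent higher, 20.1 percent lower), and 6 did so at least 4-fold, or 13 percent against 6.18 percent. The median log2 difference over the 46 genes was 0.00, -0.03 and -0.02 in these comparisons, and 0.00, -0.02 and -0.02 over all genes. Each pair of these comparisons shares a genotype's arrays, so their values are given side by side and not as separate evidence.

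With each array centred on its median, the counts were 28 higher and 7 lower for KO against WT and 36 higher and 8 lower for S5 against WT. Centring shifts these comparisons by 0.18 and 0.27 on the log2 scale relative to the deposited values, and values in the low mode vary little (median residual SD 0.03). No share of all genes after centring stands beside these counts, so they are not read as a result about the families.

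**Figure D2:**
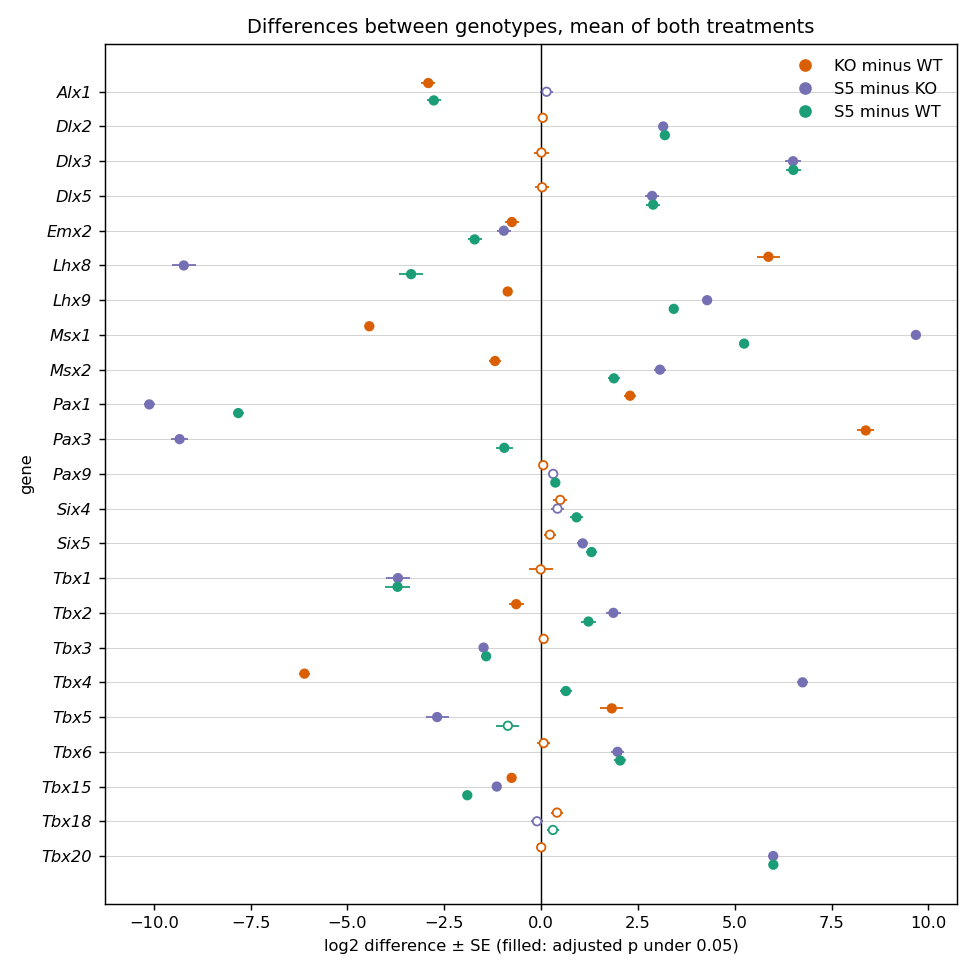
Log2 difference with its SE for the 23 members that reached 4 in a group (rows), for KO minus WT, S5 minus KO and S5 minus WT, each the mean of both treatments; filled points passed the adjusted p of 0.05. The largest KO minus WT differences were those of Pax3 (8.38), Tbx4 (-6.11) and Lhx8 (5.87), and S5 minus KO ran from -10.11 (Pax1) to 9.68 (Msx1).

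The Msx genes encode homeodomain repressors that respond to bone morphogenetic proteins (BMPs) and keep embryonic mesenchyme from differentiating. Msx1 read 7.26 and 7.46 on the untreated and 6.84 and 7.10 on the treated WT arrays. On KO arrays it read 2.94 and 3.02 untreated and 2.52 and 2.44 treated, in the low mode. On S5 arrays it read 12.11 and 11.99 untreated and 12.78 and 12.75 treated, so the arrays of the 3 genotypes did not overlap. Msx1 was at least 8.96-fold lower in KO than in WT (log2 difference -4.43, SE 0.07, adjusted p = 2.05e-08), at least 339-fold higher in S5 than in KO (9.68, adjusted p = 2.0e-10) and 37.8-fold higher in S5 than in WT (5.24, adjusted p = 3.67e-09).

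A second Msx1 probe set reached 4 only in S5 MEFs, with group means of 6.17 untreated and 7.48 treated, and lay between 1.95 and 1.99 in the others. Msx2 had the same order of levels with smaller differences, at 5.70 ± 0.25 (SD, n = 4) in KO, 6.89 ± 0.55 in WT and 8.77 ± 0.32 in S5 MEFs. It was 2.28-fold lower in KO than in WT (adjusted p = 0.000575) and 8.39-fold higher in S5 than in KO (adjusted p = 3.22e-06). Msx3, which is used in the dorsal neural tube, lay in the low mode in every group.

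Tbx4 and Tbx5, T-box genes of the hindlimb and the forelimb, differed in opposite directions between KO and WT MEFs. Tbx4 read 8.31 and 8.62 on untreated and 8.78 and 8.33 on treated WT arrays. It read 2.77, 2.24, 2.27 and 2.32 on the KO arrays, all in the low mode. It read 9.62 and 9.57 on untreated and 8.78 and 8.64 on treated S5 arrays. Tbx4 was at least 22.8-fold lower in KO than in WT (log2 difference -6.11, SE 0.15, adjusted p = 1.51e-07) and at least 35.5-fold higher in S5 than in KO (6.75, adjusted p = 4.41e-08). S5 and WT arrays overlapped in Tbx4, and the difference of 0.64 between them (adjusted p = 0.00847) was 0.15 on treated arrays alone, where it did not pass (adjusted p = 0.686). On the other Tbx4 probe set all 6 group means lay from 2.10 to 2.14, so these results rest on 1 probe set, and the second probe sets of Tbx5, Msx2 and Alx1 likewise lay below 4 in every group.

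Tbx5 stood at 4.12 ± 0.04 (SD, n = 4) in WT, just above the low mode, at 5.95 ± 0.68 in KO and at 3.27 ± 0.02 in S5 MEFs. It was 3.54-fold higher in KO than in WT (log2 difference 1.83, SE 0.30, adjusted p = 0.00211) and at least 3.86-fold lower in S5 than in KO (adjusted p = 0.000278). The KO arrays, at 6.88, 5.38, 5.50 and 6.03, all lay above the WT arrays, which ran from 4.10 to 4.18. The difference between S5 and WT was -0.86 and did not pass (adjusted p = 0.0512). Over all genes the median residual SD was 0.03 for mean levels below 4 and 0.29 for those from 4 to 8. Whether the WT level of Tbx5, with its SD of 0.04, is background was not tested.

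The promoters of Msx1 and Tbx4 are shown because these were the 2 genes that stood above 4 on all WT and S5 arrays and in the low mode on all KO arrays. Each is the 250 bases before the gene's start in RefSeq's table for GRCm38.p6, 5′ to 3′ on the gene's strand, with every CpG in capitals. The Msx1 stretch lies at chr5:37824586-37824835 on the minus strand, and that of Tbx4 at chr11:85896515-85896764 on the plus strand.
Msx1: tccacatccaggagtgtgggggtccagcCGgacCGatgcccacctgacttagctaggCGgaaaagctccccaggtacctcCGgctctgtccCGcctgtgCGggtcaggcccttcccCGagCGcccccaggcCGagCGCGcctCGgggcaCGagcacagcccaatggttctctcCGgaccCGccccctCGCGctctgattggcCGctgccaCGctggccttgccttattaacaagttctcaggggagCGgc
Tbx4: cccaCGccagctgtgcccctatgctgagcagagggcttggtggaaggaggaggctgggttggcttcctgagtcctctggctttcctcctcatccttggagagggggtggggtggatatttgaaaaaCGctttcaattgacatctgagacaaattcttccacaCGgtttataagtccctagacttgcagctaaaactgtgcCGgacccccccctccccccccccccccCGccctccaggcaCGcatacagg
The Msx1 stretch holds 20 CpGs with 68 percent G and C, and the Tbx4 stretch 6 CpGs with 58.4 percent. Both genes lay in the low mode on KO arrays alone, and the base composition of their promoters differed. A relation between level and base composition was not tested.

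RefSeq's promoter table held 33 of the 46 genes with 42 starts. Their median GC content over 250 bases was 60.8 percent and their median CpG count 15, against 52.4 percent and 6 over all 32851 starts. The STAT palindrome TTCNNNGAA, which reads the same on both strands, was found at 0 of the 42 starts and at 7 percent of all starts. The homeodomain core TAATTA, also a palindrome, was found at 3 of the 42 starts (Msx2, Tbx19 and Tbx6), or 7.1 percent, against 4.8 percent of all. The T-box site GGTGTGA, read on both strands, was found at 0 of 42 and at 3.3 percent of all, and the TATA box TATAAA, also on both strands, at 4 of 42 (Lhx3, Msx3, Tbx4 and Tbx6), or 9.5 percent, against 12.4 percent. A missing match says only that these letters are not in this window, and a match only that they are. The TATA matches of Msx3 and Tbx4 were TTTATA, on the opposite strand, and that of Lhx3 lay 176 to 171 bases before the start.

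**Figure D3:**
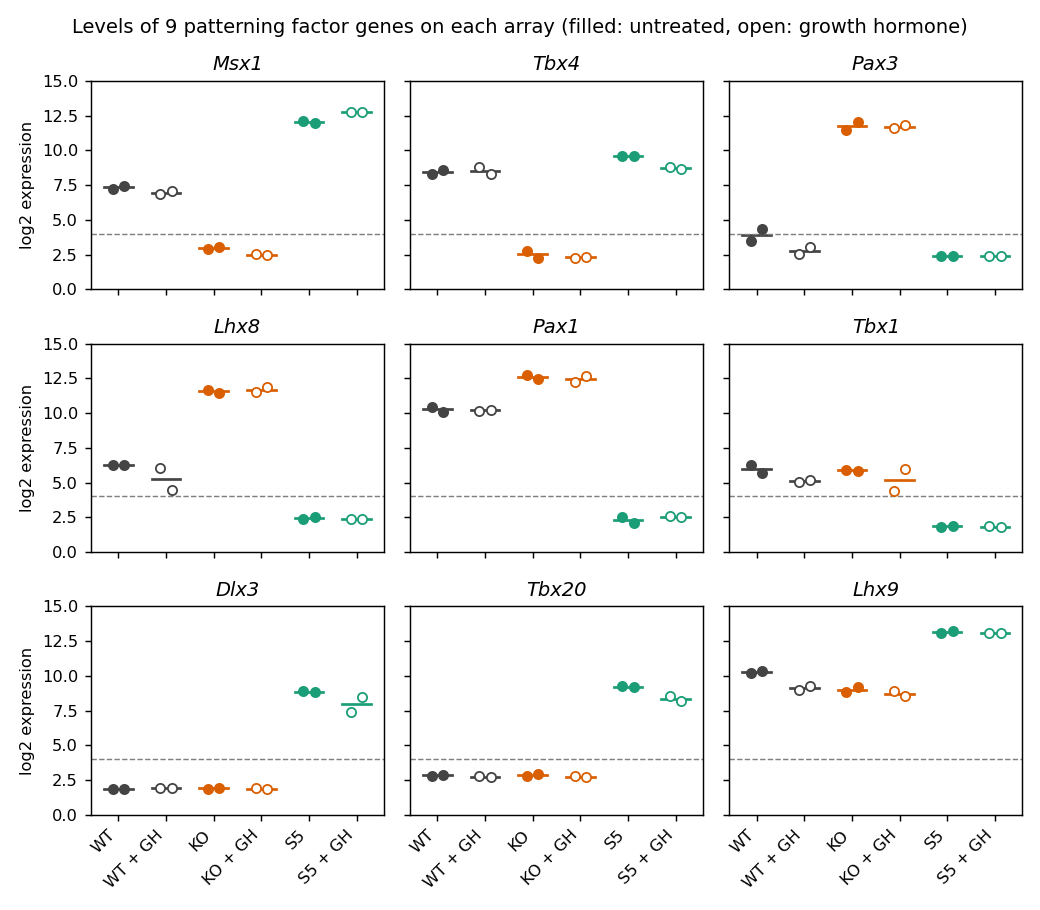
Log2 expression value of 9 genes on each array, by group, with a line at the group mean and a dashed line at 4, the upper edge of the low mode. Msx1 and Tbx4 lie below 4 only on KO arrays, Lhx8, Pax1 and Tbx1 only on S5 arrays, and Dlx3 and Tbx20 lie above 4 only on S5 arrays.

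Pax3, a paired-domain factor of the dorsal neural tube, neural crest and muscle precursors, had the largest difference of the 46 genes between KO and WT MEFs. It read 3.49 and 4.37 on untreated and 2.54 and 3.01 on treated WT arrays. On KO arrays it read 11.48 and 12.03 untreated and 11.62 and 11.81 treated. S5 arrays lay between 2.37 and 2.43. Pax3 was thus at least 213-fold higher in KO than in WT (log2 difference 8.38, SE 0.22, adjusted p = 2.27e-07) and at least 213-fold lower in S5 than in KO (-9.33, adjusted p = 6.45e-08). Both other Pax3 probe sets were also higher in KO than in WT, by 6.77 and 3.80, with S5 group means between 2.02 and 2.30. The call of Pax3 as lower in S5 than in WT (log2 difference -0.95, adjusted p = 0.00868) lay in the low mode and was lost on treated arrays alone (adjusted p = 0.421).

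Of 5 neural and neural crest genes 2 reached 4 on each KO array, 3 or 4 on WT arrays and 2 or 3 on S5 arrays, and the log2 of their summed level ran from 8.28 to 8.86 in KO, from 10.91 to 11.30 in WT and from 9.20 to 9.94 in S5 MEFs. The genes above 4 in KO were Nes, an intermediate filament gene of progenitor cells, with group means of 7.57 and 7.94, and Tubb3, a neuronal tubulin, with 7.25 and 7.57. Both were lower in KO than in WT, by -2.92 (adjusted p = 2.92e-06) and -1.39 (adjusted p = 0.00526) on the log2 scale. The neural crest factor Sox10 had group means of 2.23 and 2.19 in KO and 6.02 and 5.67 in WT MEFs. The muscle regulators Myod1, Myf5 and Myog had group means of at most 2.80, and the related Pax7 lay between 2.28 and 2.37 on all arrays. Of the 6 skeletal muscle genes read, 1 reached 4 on each WT and S5 array and 0 on KO arrays. This was Acta1, with group means of 7.95 and 8.32 in WT, 2.19 and 3.17 in KO and 8.16 and 8.08 in S5 MEFs.

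Pax1 and Pax9 are sister genes of the sclerotome, the part of the somite that forms the vertebrae, and of the pharyngeal pouches. Pax1 read 10.45, 10.08, 10.13 and 10.25 on the WT arrays and 12.72, 12.43, 12.27 and 12.68 on the KO arrays. On S5 arrays it read 2.51, 2.07, 2.57 and 2.5, all in the low mode. It was 4.91-fold higher in KO than in WT (log2 difference 2.30, SE 0.15, adjusted p = 1.92e-05), at least 368-fold lower in S5 than in KO (adjusted p = 5.26e-09) and at least 75.0-fold lower in S5 than in WT (adjusted p = 2.13e-08). Another Pax1 probe set had the same order, with untreated means of 5.59 in KO, 4.53 in WT and 2.67 in S5.

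Pax9 stayed within a narrow range. It stood at 8.96 ± 0.21 (SD, n = 4) in WT, 9.01 ± 0.14 in KO and 9.33 ± 0.40 in S5 MEFs, with overlapping arrays. Its 1.29-fold difference between S5 and WT (adjusted p = 0.0251) was lost on treated arrays alone, with the mean of its probe sets, and when either untreated WT array, replicate 1 of the treated WT arrays, replicate 2 of the untreated S5 arrays or replicate 2 of the treated S5 arrays was left out (adjusted p up to 0.327). Its other 2 probe sets lay in the low mode.

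The LIM-homeodomain genes held a pair with opposite patterns. Lhx8, used in the ventral forebrain and in the mesenchyme of the palate and teeth, read 6.25 and 6.23 on untreated and 6.07 and 4.49 on treated WT arrays. It read 11.68, 11.46, 11.51 and 11.85 on KO arrays and between 2.34 and 2.5 on S5 arrays. Lhx8 was 58.4-fold higher in KO than in WT (log2 difference 5.87, SE 0.30, adjusted p = 6.89e-06) and at least 198-fold lower in S5 than in KO (adjusted p = 3.99e-07).

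Lhx9, a factor of the limb bud and the gonad, was highest in S5 MEFs. Its S5 arrays read 13.11, 13.23, 13.11 and 13.12, its WT arrays 10.24, 10.34, 9.01 and 9.28 and its KO arrays 8.81, 9.17, 8.92 and 8.52. It was 19.5-fold higher in S5 than in KO (log2 difference 4.29, SE 0.12, adjusted p = 1.49e-07) and 10.7-fold higher than in WT (adjusted p = 4.91e-07). The 1.82-fold lower level in KO than in WT (adjusted p = 0.000856) passed on untreated arrays alone (adjusted p = 0.00116) and not on treated arrays alone (adjusted p = 0.106), and KO and WT arrays overlapped. Its 3 other probe sets were higher in S5 than in KO by 3.72 to 5.06. Between KO and WT they differed by -1.17, -0.23 and -0.07. With each probe set tested on its own by limma, only the first of these passed (adjusted p = 0.0379, 0.176 and 0.916). Lhx6, a partner of Lhx8 in forebrain and jaw, was called higher in KO than in WT and in S5 than in WT, but all its group means lay between 1.96 and 3.26, in the low mode, and the latter call was lost on untreated arrays alone (adjusted p = 0.0614).

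The Dlx genes are homeobox genes of the jaw arches, forebrain, limb and skin that lie in the genome in pairs. Within each pair measured here 1 gene was read and the other lay in the low mode in all groups. Dlx2 read 8.91, 8.84, 7.70 and 8.05 on WT arrays, 9.04, 8.75, 8.11 and 7.76 on KO arrays and 11.84, 11.69, 11.31 and 11.43 on S5 arrays. It was 8.89-fold higher in S5 than in KO (log2 difference 3.15, SE 0.11, adjusted p = 6.52e-07) and did not differ between KO and WT beyond the spread (0.04, adjusted p = 0.887). Its neighbour Dlx1 was called higher in S5 than in KO (log2 difference 0.76, adjusted p = 0.00155) but reached only 3.03 on its highest array.

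Dlx3, a factor of skin, hair and bone, read 8.87 and 8.80 on untreated and 7.42 and 8.48 on treated S5 arrays and between 1.84 and 1.94 on every WT and KO array. It was at least 21.0-fold higher in S5 than in KO (log2 difference 6.50, SE 0.20, adjusted p = 2.83e-07). This rests on 1 probe set, since the other Dlx3 probe set lay between 1.95 and 2.03 on all arrays. Its neighbour Dlx4 lay in the low mode throughout. Dlx5, used in jaw patterning and in bone-forming cells, read 5.65 and 5.62 on untreated and 4.08 and 5.02 on treated S5 arrays and between 2.19 and 2.25 elsewhere, at least 2.13-fold higher in S5 than in KO (adjusted p = 1.18e-05). Its neighbour Dlx6 lay between 2.0 and 2.1 in every group mean. By count 4 of the 6 Dlx genes were higher in S5 than in KO (against 20.3 percent of all genes) and 4 were higher in S5 than in WT (against 24.7 percent), with Dlx1, in the low mode on every array, among them both times. Between KO and WT 0 of the 6 passed in limma's test, against 38.2 percent of all genes.

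Among the other T-box genes, Tbx20, a factor of the heart, was read only in S5 MEFs. It read 9.24 and 9.17 on untreated and 8.52 and 8.19 on treated S5 arrays and between 2.69 and 2.89 on every other array, at least 27.5-fold higher in S5 than in KO (log2 difference 5.99, SE 0.07, adjusted p = 2.21e-09). Both other Tbx20 probe sets lay between 2.09 and 2.33 in all groups, so this rests on 1 probe set. Tbx1, a gene of the pharyngeal arches, had the opposite pattern. It stood at 5.54 ± 0.54 (SD, n = 4) in WT and 5.53 ± 0.75 in KO MEFs, read between 1.82 and 1.86 on S5 arrays, and was at least 2.89-fold lower in S5 than in KO (log2 difference -3.70, adjusted p = 6.28e-05).

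Tbx15, which shapes the dorsal dermis and the limb and head skeleton, had levels that differed in all 3 genotype comparisons, from 12.14 ± 0.24 in WT to 11.38 ± 0.13 in KO and 10.23 ± 0.13 in S5 MEFs (SD, n = 4), with no overlap of arrays between genotypes. It was 1.69-fold lower in KO than in WT (adjusted p = 0.000111) and 2.21-fold lower in S5 than in KO (adjusted p = 1.04e-05), and its second probe set moved the same way. Tbx3, a repressor used in limb and mammary gland, stood at 9.76 ± 0.31 in WT and 9.82 ± 0.16 in KO and was 2.80-fold lower in S5 than in KO, at 8.34 ± 0.28 (adjusted p = 1.09e-05). Tbx18, a factor of the somite and the epicardium, lay between 9.32 and 10.24 on all 12 arrays and passed in none of the 9 comparisons (adjusted p between 0.086 for KO against WT and 1.0). Its second probe set, between 5.40 and 6.52, had the opposite sign for KO against WT (-0.52 against 0.41) and for S5 against WT (-0.58 against 0.31). Neither passed when tested on its own by limma (adjusted p = 0.139 and 0.0844).

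Emx2, a homeodomain factor of the forebrain, urogenital tract and shoulder blade, stood at 10.95 ± 0.23 in WT, 10.20 ± 0.36 in KO and 9.23 ± 0.25 in S5 MEFs (SD, n = 4). It was 1.69-fold lower in KO than in WT (adjusted p = 0.0136) and 1.95-fold lower in S5 than in KO (adjusted p = 0.00437). The former was lost on treated arrays alone (adjusted p = 0.196), and the latter on untreated arrays alone (0.0868). Six4 and Six5, relatives of a fly eye gene that act in muscle and other tissues, were higher in S5 than in WT, 1.89-fold (adjusted p = 0.00389) and 2.47-fold (adjusted p = 0.000246). Six5 was also 2.10-fold higher in S5 than in KO (adjusted p = 0.000902). For KO minus WT the Six4 probe set read here gave 0.49, and its other probe sets above 4 gave 0.37 and 0.73. With each probe set tested on its own by limma, only the last passed (adjusted p = 0.0788, 0.267 and 0.00375). Alx1, a factor of the facial mesenchyme, read 6.42, 6.08, 4.0 and 4.87 on WT arrays and between 2.34 and 2.78 on KO and S5 arrays, at least 2.53-fold lower in KO than in WT (adjusted p = 1.52e-05).

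Neighbouring genes were read together in some groups and not in others. Tbx2 and Tbx4 lie side by side with no protein-coding gene between them, and Tbx2 had group means between 2.37 and 3.34 in WT and KO MEFs whether Tbx4 was read, as in WT, or not, as in KO. On untreated S5 arrays both were above 4, at 5.64 and 5.77 for Tbx2 and 9.62 and 9.57 for Tbx4, and both fell with the hormone there. Tbx3 and Tbx5 are neighbours too, and only Tbx5 differed between KO and WT MEFs, while the level of Tbx3 was above 4 in every group. Six3 and Six2, also side by side, both lay in the low mode.

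The responses of these genes to growth hormone were counted beside the shares of all genes. In WT MEFs 3 of the 46 fell and 0 rose, or 6.5 percent, against 6.00 percent of all genes (3.06 percent higher, 2.94 percent lower). In S5 MEFs 2 rose and 5 fell, or 15.2 percent, against 7.88 percent (3.63 percent higher, 4.25 percent lower). In KO MEFs 0 of 46 passed in limma's test, with 2 at an unadjusted p under 0.05, against 0.308 percent of all genes. The count in WT was 1 without replicate 2 of the untreated WT arrays, 5 without either treated KO array and 0 in a fit of only the WT arrays. The count in S5 was 3 without replicate 2 of the untreated S5 arrays and 4 without either untreated WT array.

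**Figure D4:**
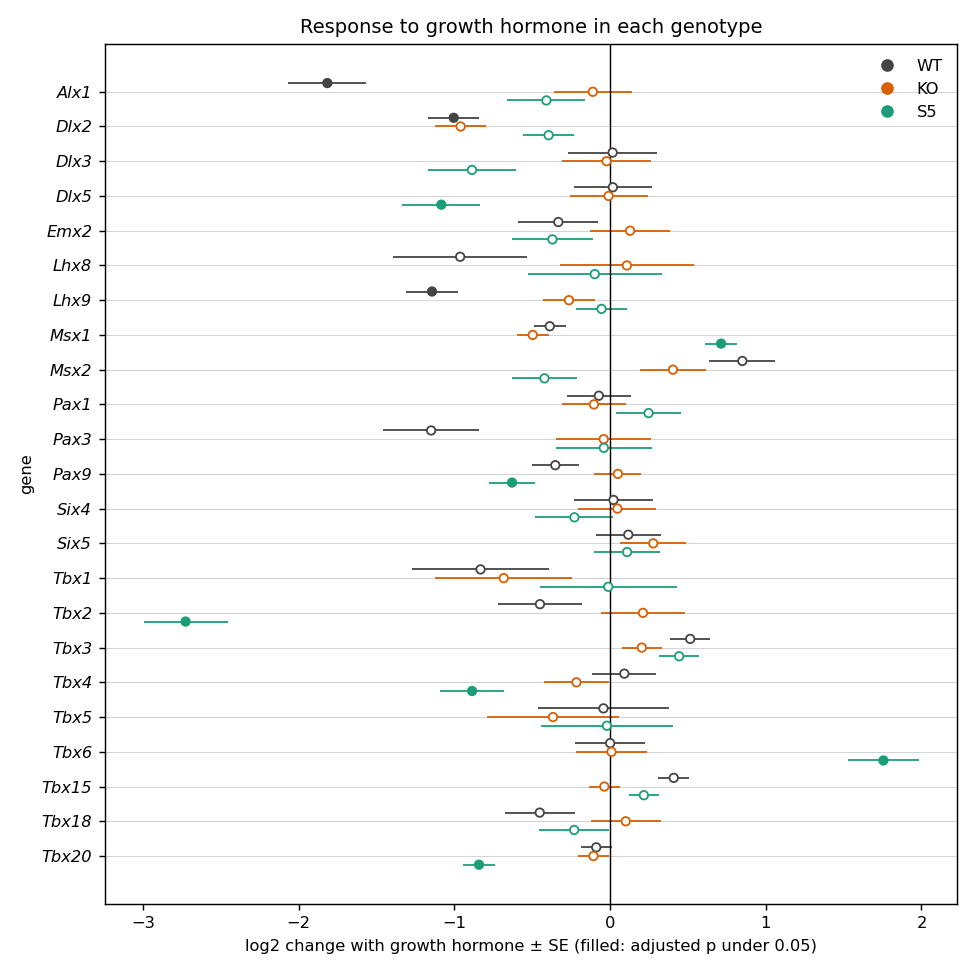
Log2 change with growth hormone and its SE for the 23 members that reached 4 in a group (rows), in WT, KO and S5 MEFs; filled points passed the adjusted p of 0.05. Tbx2 (-2.73) and Tbx6 (1.76) in S5 MEFs and Alx1 (-1.82) in WT MEFs lie furthest from 0, and no KO point is filled.

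The 3 genes that fell in WT MEFs were Alx1, Lhx9 and Dlx2. Alx1 fell 3.52-fold, from 6.42 and 6.08 to 4.0 and 4.87 (log2 change -1.82, SE 0.25, adjusted p = 0.00830). Lhx9 fell 2.21-fold (log2 change -1.14, SE 0.17, adjusted p = 0.00994), and its call was lost without replicate 2 of the untreated WT arrays (adjusted p up to 0.065 over its alternatives). Dlx2 fell 2.01-fold (log2 change -1.0, SE 0.16, adjusted p = 0.0145), and its call was lost without either untreated WT array or replicate 1 of the treated ones. In KO MEFs the log2 change of Dlx2 was -0.96, also with no overlap of arrays, which did not pass (adjusted p = 0.0812), and the WT response minus the KO response was -0.04 (adjusted p = 1.0). With the fit limited to WT arrays, none of the 3 passed (adjusted p up to 0.137). The other Lhx9 probe sets changed by -1.54, -1.33 and -0.16 with the hormone in WT MEFs. None of them passed when each probe set was tested on its own by limma (adjusted p = 0.160, 0.0579 and 0.614).

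In S5 MEFs Tbx2, a repressor that regulates growth and limb pattern, fell furthest. It read 5.64 and 5.77 on untreated and 2.93 and 3.03 on treated S5 arrays, at least 3.26-fold (log2 change -2.73, SE 0.27, adjusted p = 0.00206). Its untreated S5 arrays were the only ones of the 12 above 4. The difference of Tbx2 between S5 and KO, called over both treatments, therefore did not pass on treated arrays alone (adjusted p = 0.375). Its call as lower in KO than in WT (log2 difference -0.64, adjusted p = 0.0322) lay wholly in the low mode, and 11 of 23 alternatives kept it (adjusted p up to 0.539).

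Tbx6, a factor of the presomitic mesoderm, rose in S5 MEFs from 3.33 and 3.41, in the low mode, to 5.54 and 4.72, at least 2.19-fold (log2 change 1.76, SE 0.23, adjusted p = 0.00577). It read between 2.11 and 2.31 on all WT and KO arrays. Its promoter is shown because Tbx6 was the member with the largest rise with the hormone. The 250 bases before its start lie at chr7:126781233-126781482 on the plus strand (RefSeq, GRCm38.p6), with the homeodomain core 231 to 226 and the TATA box 43 to 38 bases before the start in capitals.
Tbx6: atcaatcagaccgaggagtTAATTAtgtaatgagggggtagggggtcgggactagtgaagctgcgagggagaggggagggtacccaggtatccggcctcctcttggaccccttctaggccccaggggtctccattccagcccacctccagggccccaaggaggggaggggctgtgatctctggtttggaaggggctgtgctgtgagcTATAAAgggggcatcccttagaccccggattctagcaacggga
Like the other starts in the promoter table, which held 33 of the 46 genes, it holds no match to the STAT palindrome.

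Msx1, whose level was higher in S5 than in WT and KO MEFs, rose in S5 1.64-fold from 12.11 and 11.99 to 12.78 and 12.75 (log2 change 0.71, SE 0.10, adjusted p = 0.00831). The call was lost with a trended prior and without replicate 2 of the untreated S5 arrays (adjusted p up to 0.0585). In WT and KO MEFs the log2 changes of Msx1 were -0.39 and -0.50 and missed the threshold (adjusted p = 0.0774 and 0.129). Tbx20 fell 1.79-fold in S5 MEFs (log2 change -0.84, SE 0.10, adjusted p = 0.00440), with treated arrays below untreated ones, and this was lost in a fit of only the S5 arrays (adjusted p = 0.0929). So was the call of Tbx6 (adjusted p = 0.114).

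The other 3 falls in S5 MEFs lay close to the threshold. Dlx5 fell 2.12-fold (adjusted p = 0.0447), and its call was lost when any 1 array other than a treated S5 array was left out (adjusted p up to 0.25 over its alternatives). Tbx4 fell 1.85-fold (adjusted p = 0.0456), lost when any 1 array other than a treated WT or an untreated KO array was left out (adjusted p up to 0.178). Pax9 fell 1.55-fold (adjusted p = 0.0497), lost when any 1 array other than a treated KO array was left out (adjusted p up to 0.25). Dlx3, with a log2 change of -0.89, missed the threshold (adjusted p = 0.121).

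The hormone responses themselves were compared between genotypes. The S5 response minus the KO response passed for 2 of the 46 genes, Msx1 and Tbx2, or 4.3 percent, against 1.13 percent of all genes, and for 6 genes without replicate 2 of the treated S5 arrays, 4 without replicate 1 of them, and 1 without either untreated KO array or replicate 2 of the untreated S5 arrays. The S5 response minus the WT response passed for 4, Msx1, Tbx2, Tbx6 and Tbx20, or 8.7 percent, against 2.92 percent. That count was 2 without either untreated WT array, replicate 2 of the treated WT arrays, either untreated KO array or replicate 1 of the untreated S5 arrays, and 1 without replicate 2 of the latter. The WT response minus the KO response passed for 0 of 46, with 4 at an unadjusted p under 0.05, against 1.27 percent of all genes, and for 2 without replicate 1 and 1 without the other treated WT array, and 1 without replicate 2 of the treated KO arrays.

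Further lists (relatives, cofactors, other mesenchyme factors and the BMP pathway) describe the surroundings of these families, with the shares of all genes beside their counts. No list was tested as a set. Of 7 relatives whose names lie outside the symbol pattern, 1 was higher and 2 lower in KO than in WT. The shares of all genes were 21.0 and 17.2 percent. In S5 against KO 3 of the 7 were higher and 0 lower, against 20.3 and 16.9 percent of all genes. Lmx1b, the LIM-homeodomain gene of the dorsal limb, had untreated means of 6.01 in WT, 2.01 in KO and 9.79 in S5 MEFs, at least 52.8-fold higher in S5 than in KO (adjusted p = 3.56e-09). Eomes, a T-box gene of early mesoderm, had untreated means of 2.57 in WT, 6.30 in KO and 8.98 in S5. Isl1, a LIM-homeodomain gene of motor neurons, heart and hindlimb, was read only in WT MEFs, at 7.42 untreated and 6.06 treated, and fell there with the hormone (log2 change -1.36, adjusted p = 0.00493).

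A list of 16 cofactors work with LIM-homeodomain, sine oculis-related and other factors of these families, directly or through another cofactor. Of these, 3 were higher and 4 lower in KO than in WT, against 21.0 and 17.2 percent of all genes. In S5 against KO 8 were higher and 2 lower, against 20.3 and 16.9 percent of all genes. Ldb2, a cofactor of LIM-homeodomain proteins, had untreated means of 9.14 in WT, 7.48 in KO and 2.36 in S5 and was at least 9.03-fold lower in S5 than in KO (adjusted p = 2.2e-07). Ldb1, another such cofactor, had another order, with untreated means of 6.97 in WT, 8.53 in KO and 8.78 in S5. Dach1, a partner of the Eya proteins, was at least 39.4-fold higher in S5 than in KO (adjusted p = 2.79e-07). Eya1, a phosphatase and coactivator of Six4 and its relatives, was 5.06-fold higher in KO than in WT. With the hormone 3 of these cofactors fell in WT (Eya1, Eya4 and Tle4), against 2.94 percent of all genes. In S5 1 of them rose, against 3.63 percent, the corepressor Tle1 by 1.39 (adjusted p = 0.0049).

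Of 22 other patterning factors of the mesenchyme, 9 were higher and 4 lower in KO than in WT. The shares of all genes were 21.0 and 17.2 percent. In S5 against KO 4 were higher and 12 lower, against 20.3 and 16.9 percent of all genes. The median log2 difference of the list between S5 and KO was -0.36, against -0.02 over all genes. Twist2, a repressor of dermal mesenchyme, was 31.4-fold lower in S5 than in KO (adjusted p = 8.31e-09), the Hox cofactor Meis1 21.7-fold lower, the forkhead gene Foxf1 at least 23.3-fold lower and its relative Foxd1 at least 4.17-fold lower. With the hormone 1 gene of this list rose and 6 fell in WT MEFs, against 3.06 and 2.94 percent of all genes. Twist2 rose there by 0.79 and, among those that fell, Foxc1 changed by -1.02. In S5 1 rose and 3 fell, against 3.63 and 4.25 percent of all genes. Twist2 was among those that fell in S5, with a change of -0.76 and an S5 response minus WT response of -1.55 (adjusted p = 0.00318).

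Of 18 BMP pathway genes, 6 were higher and 3 lower in KO than in WT, against 21.0 and 17.2 percent of all genes. In S5 against KO 8 were higher and 3 lower, against 20.3 and 16.9 percent of all genes. Bmp4, a ligand that raises Msx genes in embryonic mesenchyme, had untreated means of 12.18 in WT, 9.99 in KO and 13.76 in S5 MEFs. It was 3.64-fold lower in KO than in WT (adjusted p = 4.87e-07) and 16.1-fold higher in S5 than in KO (adjusted p = 4.53e-09). Bmp2, a related ligand, had another order, with untreated means of 4.19 in WT, 9.23 in KO and 7.99 in S5 MEFs, and was 14.4-fold higher in KO than in WT (adjusted p = 4.48e-06). Id1, Id3 and Smad6, genes that BMP signals raise, were 2.65-fold, 3.81-fold and 8.28-fold higher in S5 than in KO. Id1 was also 2.55-fold higher in KO than in WT (adjusted p = 0.0224), and Id3 had a difference of -0.06 there that missed the threshold (adjusted p = 0.768). Id2, of the same list, had group means of 10.87 and 9.91 in WT, 9.40 and 8.86 in KO and 11.60 and 11.04 in S5. Those of Smad6 were 7.80 and 5.92 in WT and 6.35 and 6.16 in KO MEFs. Smad7 had group means between 11.81 and 12.10 in all 6 groups. Grem1, a secreted BMP antagonist, was 6.41-fold higher in KO than in WT (adjusted p = 2.94e-05). Over 3 genotypes, whose cell preparations the labels do not describe, no relation between these genes was tested.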

How the data were processed

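The authors deposited 1 table of log2 expression values for 45101 probe sets on 12 arrays. GCOS and RMA are listed, without settings, in the submitters' processing notes, and the log2 scale was read from the range, 0.99 to 15.95. The number of arrays limits the precision.

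From this table, the 34945 probe sets listed with exactly 1 gene were kept (64 control probe sets and 932 with several genes were left out), giving 18193 genes. Symbols came from the series' probe annotation, updated through RefSeq's GRCm38.p6 gene table. limma 3.58.1 in R 4.3.3 fitted 6 group means to the 12 arrays (6 residual degrees of freedom). The fit was tested on simulated data. Members, lists and the low-mode bound of 4 were chosen with earlier results of these data known. Members with a group mean of at least 4, or past the threshold with the hormone, are given with values; of the other lists, counts and up to 4 genes with the smallest adjusted p per genotype comparison, with a few further genes chosen after their values were seen. Alternatives were other normalizations, probe set summaries, filters, priors and sample sets. Some members of these families are not reported here.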

Additional observations from a re-analysis of the deposited data

Results flagged for a closer look

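The hormone response of 4 genes differed between genotypes in limma's test of the difference itself (adjusted p under 0.05). For Msx1 the response in S5 exceeded that in KO by 1.21 on the log2 scale (adjusted p = 0.0131), or 0.71 with levels below 4 set to 4, and that in WT by 1.10 (adjusted p = 0.00921). Both were lost with a trended prior (adjusted p = 0.0764 and 0.0637). For Tbx2 these differences were -2.94 (adjusted p = 0.0186) and -2.28 (adjusted p = 0.0246), or -1.70 each with levels below 4 set to 4. The first was lost without either untreated KO or either untreated S5 array or replicate 1 of the treated S5 arrays (adjusted p up to 0.0628). The second was lost without any 1 S5 array, without treated WT replicate 2 and in a fit of only the S5 and WT arrays (adjusted p up to 0.0884). For Tbx6 the S5 response minus the WT response was 1.75 (adjusted p = 0.0346), or 1.13 with levels below 4 set to 4, and for Tbx20 it was -0.75 (adjusted p = 0.0392), or -0.84 so set. Both were lost when any 1 array other than a treated S5 array was left out (adjusted p up to 0.112 for Tbx6 and 0.272 for Tbx20 over their alternatives).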

How the results depend on the processing

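Of the 72 calls of single genes over the 9 comparisons, 47 kept their direction and call under every alternative run for them, 25 lost the call under at least 1, and 0 changed direction. For S5 against KO the number of genes called lay between 19 and 22 under all alternatives. For KO against WT it lay between 10 and 14, and for S5 against WT between 19 and 26, except with arrays centred on their median, where it was 35 and 44. For the WT hormone response it was 5 with only genes that reached 4 in a group, 5 with the replicate block and 0 with only the groups compared. For the difference between the WT and the KO response it was 1 with only genes that reached 4.

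Leaving out single arrays gave 12 to 14 genes for KO against WT, 20 to 22 for S5 against KO, 22 to 24 for S5 against WT, 1 to 5 for the WT, 0 for the KO and 3 to 6 for the S5 response, 0 to 2 for the WT minus KO, 1 to 6 for the S5 minus KO and 1 to 5 for the S5 minus WT response. An arm left with 1 array was assumed to vary like the other groups. The replicate numbers pair nothing in the labels. Over 10947 genes the deviations of arrays with the same number correlated with r from -0.36 to 0.20, and 1 of 15 group pairs exceeded 0.1. With the replicate block the counts for the other comparisons were 13 (KO against WT), 21 (S5 against KO), 23 (S5 against WT), 5 (S5 response) and 0 (KO response). Signal over background limits the 23 genes in the low mode, where a true change can be hidden.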

Other observations

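Emx2os, the transcript annotated opposite to Emx2, read 4.52 and 4.15 on untreated WT arrays, 3.95 and 3.91 on treated WT arrays and between 3.70 and 4.02 on KO arrays, at the edge of the low mode. On S5 arrays it read 3.95 and 3.94 untreated and 2.56 and 2.94 treated (log2 change -1.19, adjusted p = 0.00579 by limma), while Emx2 had a change of -0.37 there that did not pass (adjusted p = 0.549). The opposite-strand transcripts of Dlx1, Dlx4, Dlx6, Lhx1, Pax6 and Six3 lay below 2.61 on all arrays. Of the 25 further probe sets of 15 genes that reached 4 in a group, 12 probe sets of 8 genes also did.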
